A study of Cucumis melo with 4 samples.

Results

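Transcript levels in andromonoecious melon plants (Cucumis melo), which bear male and bisexual flowers, were compared with those in monoecious plants, which bear male and female flowers. The comparison takes 2 of the 4 libraries of the study, 1 for each sex type, and all 76260 assembled unigenes (transcripts assembled from the reads, not genes). Hermaphrodite plants (bisexual flowers only) and gynoecious plants (female flowers only) make up the other 2 libraries and are used as a second pair. The sample labels give the genotype at the loci a and g as aagg for andromonoecious, AAGG for monoecious, aaGG for hermaphrodite and AAgg for gynoecious plants. Headers of deposited tables instead give aaGG to andromonoecious and aagg to hermaphrodite plants. Under the headers the andromonoecious and monoecious plants differ at a alone, while under the sample labels they differ at a and g. Both sources put the recessive a allele in the andromonoecious and hermaphrodite libraries.

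In melon, the a gene encodes an ethylene-forming enzyme, an ACC synthase, whose activity in young female flowers stops stamen development. Plants with the recessive allele therefore form stamens in flowers that also carry a carpel. The g gene encodes a zinc finger repressor that stops carpel development in male flowers. Later steps of stamen development, such as meiosis and the work of the tapetum, the layer that feeds the pollen, are run by a set of transcription factors known mainly from Arabidopsis. No described unigene used here carried the name of an ACC synthase or of this repressor.

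Each library is 1 bulk. Tissue came from several recombinant inbred lines at 4 stages, from true leaves to flower buds just before opening, and RNA extracted line by line was combined in equal amounts. A library is thus an average over lines, leaves and buds. The labels do not say how many lines went into a bulk. The andromonoecious, monoecious and gynoecious libraries share a flow cell, per the labels, and the hermaphrodite library was run on another. The labels give each library a lane of its own, so lane and sex type cannot be told apart. With 1 library a side there is no replicate check and no test: each ratio below compares 2 libraries, and its 95% interval (exact binomial, Clopper-Pearson) covers counting error only.

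The totals were 25.51 M reads in the andromonoecious library and 26.39 M in the monoecious library, with 27.04 M in the hermaphrodite and 26.09 M in the gynoecious library. Reads were found on 69811 unigenes in the andromonoecious library and on 66492 in the monoecious library. Ratios are of reads per library total, which equals the ratio of RPKM (reads per kilobase of unigene per M reads). A unigene with 0 reads in 1 library was set at a floor of 3 reads in it, so that its ratio is a lower bound. Of the 76260 unigenes, 34165 had at least 50 reads in the 2 libraries together. Product names were available for 1805 unigenes, taken from 4 deposited tables of pairs of libraries, and 862 of these had 50 reads.

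The andromonoecious and monoecious libraries lay close together for most unigenes. The median log2 ratio of andromonoecious over monoecious was -0.02, its quartiles were -0.52 and 0.49, and 26540 unigenes (77.7%) lay within 2-fold. At least 4-fold higher in andromonoecious were 776 unigenes (2.27%), and 801 (2.34%) were at least 4-fold lower. The counting interval lay wholly beyond 4-fold for 299 of the higher and 275 of the lower ones. Past 2-fold there were 3760 higher (11.0%) and 3865 lower (11.3%). Of all 6 pairs of libraries, only hermaphrodite against andromonoecious had a smaller share 4-fold apart (3.82%, against 4.62% for this pair). The share was 4.98% for hermaphrodite against monoecious, 6.09% for hermaphrodite against gynoecious, 7.68% for andromonoecious against gynoecious and 12.2% for gynoecious against monoecious.

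**Figure D1:**
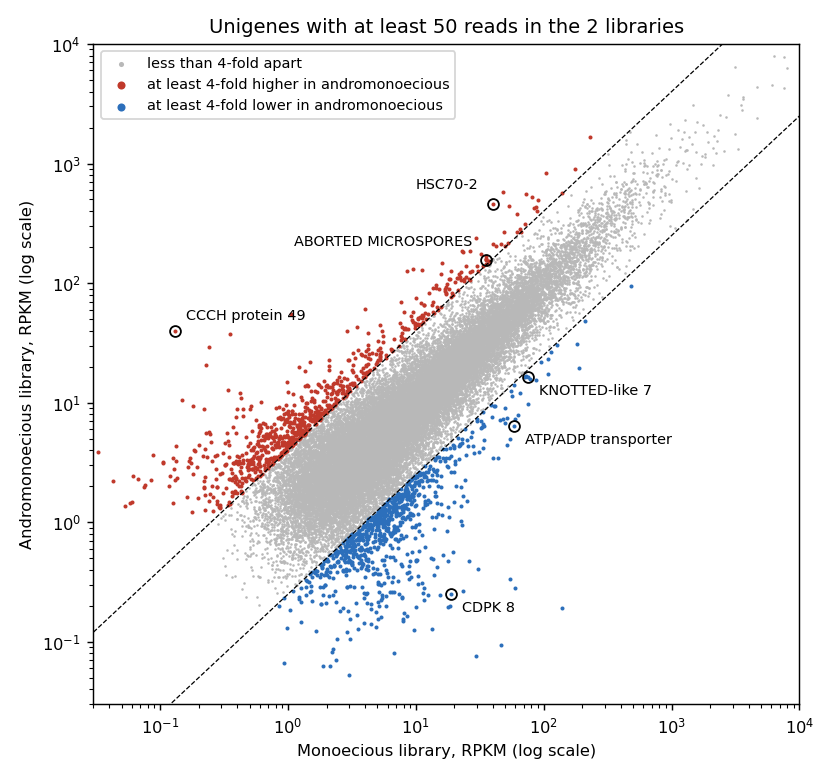
Level of each unigene with at least 50 reads in the andromonoecious library (y axis, RPKM, log scale) against the monoecious library (x axis, RPKM, log scale), with dashed lines at 4-fold and a unigene with 0 reads drawn at the floor of 3 reads. The 776 unigenes at least 4-fold higher in andromonoecious (red) and the 801 at least 4-fold lower (blue) lie on either side of a dense band, and circled unigenes are described in the text.

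The described unigenes are not a fair sample of all unigenes. Their names come from tables that list differences between libraries, so large ratios are common among them by choice. Of the 862 with 50 reads, 99 (11.5%) were at least 4-fold higher in andromonoecious and 70 (8.12%) at least 4-fold lower. At 2-fold the counts were 242 higher (28.1%) and 156 lower (18.1%), and these shares are the ones to set beside the gene lists below. Leaving out the 160 named through a ratio of this pair, 149 of 702 (21.2%) were 2-fold higher and 89 (12.7%) lower. Among the 322 named through no ratio of either library, 35 (10.9%) were higher and 25 (7.76%) lower. Among the 247 described unigenes that no table lists by a ratio of their own, 17 (6.88%) were 2-fold higher and 19 (7.69%) were 2-fold lower.

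Of the stamen and pollen genes, 3 regulators stood more than 3-fold higher in the andromonoecious library, while the 2 callose synthases with 50 reads lay within 2-fold. ABORTED MICROSPORES (Unigene49951), a bHLH factor that Arabidopsis needs for tapetum and pollen development, had 7396 andromonoecious and 1759 monoecious reads, with 2305 hermaphrodite and 90 gynoecious reads. Its level was 155 RPKM in andromonoecious and 35.6 RPKM in monoecious, a ratio of 4.35 (interval 4.13 to 4.58). The 3 libraries of plants that form stamens were all far above the gynoecious one, and the andromonoecious library was the highest. MALE STERILITY 1 (Unigene17436), a PHD finger factor that acts in the tapetum late in pollen formation, had 451 andromonoecious and 133 monoecious reads, with 197 hermaphrodite and 0 gynoecious reads (3.51-fold higher in andromonoecious, 2.88 to 4.29). MALE MEIOCYTE DEATH 1 (Unigene40706), a PHD finger factor of male meiosis, had 452 andromonoecious and 122 monoecious reads, with 136 hermaphrodite and 8 gynoecious reads (3.83-fold, 3.13 to 4.72). The last of these is counted below with the DNA replication and meiosis list, the first 2 with the anther and pollen list.

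Enzymes and transporters with this profile spanned a wider range of ratios. The exopolygalacturonase Unigene45637, a pectin-degrading enzyme of a kind abundant in pollen, had 170 andromonoecious and 34 monoecious reads, with 18 hermaphrodite and 0 gynoecious reads (5.17-fold, 3.56 to 7.71). ABC transporter G family member 2 (Unigene6879) had 117 andromonoecious and 15 monoecious reads, with 40 hermaphrodite and 0 gynoecious reads (8.07-fold, 4.70 to 14.9). Not every such unigene stood apart. ABC transporter G family member 26 (Unigene23253), which exports pollen wall precursors from the tapetum in Arabidopsis, had 326 andromonoecious and 244 monoecious reads, with 231 hermaphrodite and 0 gynoecious reads, a ratio of 1.38 (1.17 to 1.64). It and the 3 further unigenes named below from the 16-fold group were picked for mention after their values were seen. Of the 8 members of the anther and pollen list, 4 had 50 reads, of which 2 were 2-fold higher in andromonoecious and 0 lower (median log2 ratio 1.04). The others, 2 unigenes named callose synthase 5, which makes the callose wall around developing pollen, had log2 ratios of 0.26 and -0.96. ABORTED MICROSPORES is named through a table of this very pair. Of the other 3 members with 50 reads, 1 was higher (33.3%, against 21.2% over described unigenes chosen alike) and 0 lower. The 1 member named through no ratio of either library was neither higher nor lower. In bulked tissue, fewer cells of a type and less RNA per cell cannot be told apart.

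The second pair of libraries was used to group all unigenes without using either library of the comparison. The grouping goes by the ratio of hermaphrodite over gynoecious alone, not by product, and those libraries were run on different flow cells. Of 31300 unigenes with at least 50 reads in each pair, 193 were at least 16-fold higher in hermaphrodite than in gynoecious. These 193 had a median log2 ratio of andromonoecious over monoecious of 1.00 (quartiles -0.26 and 1.80). At least 2-fold higher in andromonoecious were 96 of them (49.7%), and 27 (14.0%) were at least 2-fold lower. Among the 23155 unigenes within 2-fold between hermaphrodite and gynoecious, 8.38% were 2-fold higher in andromonoecious and 8.24% were lower. High shares also stood on the opposite side. Of 403 unigenes 4- to 8-fold lower in hermaphrodite, 30.8% were 2-fold higher in andromonoecious and 8.93% lower. Of 24 at least 16-fold lower, 37.5% were higher and 37.5% lower. The relation did not run evenly along the scale. Unigenes 2- to 4-fold higher in hermaphrodite than gynoecious leaned the other way, with a median log2 ratio of -0.26 over 3407 unigenes, and those 2- to 4-fold lower had a median of 0.31 over 3100. The 197 unigenes 8- to 16-fold higher had a median of 0.35. Unigenes of one library share its depth and tissue mix, so these shares describe the 4 libraries.

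**Figure D2:**
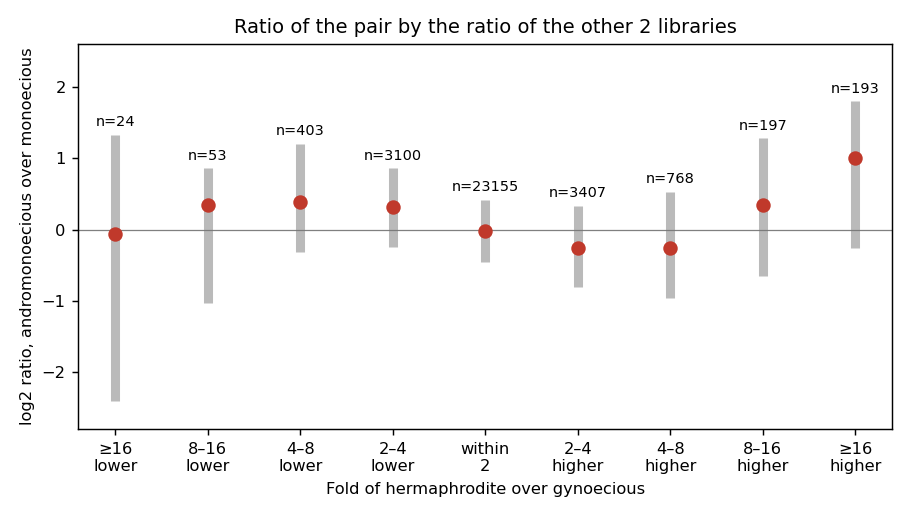
Log2 ratio of andromonoecious over monoecious (y axis) for unigenes binned by their fold of hermaphrodite over gynoecious (x axis, from lower to higher), with red points for the median, grey bars from the lower to the upper quartile and n unigenes above each bar. The median is 1.00 in the bin at least 16-fold higher in hermaphrodite, and -0.26 in the bins from 2- to 8-fold higher.

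Of these 193 unigenes, 23 have a described product. In this group 15 were at least 2-fold higher in andromonoecious, 1 was at least 2-fold lower and 7 lay within 2-fold (median log2 ratio 1.49). Over all described unigenes with 50 reads, 28.1% were 2-fold higher and 18.1% lower. Naming favours large ratios, and the 23 were not split by how they were named. Beside the regulators above, the 23 include vignain (Unigene13833), a papain-like cysteine protease linked to programmed cell death, which is listed by a ratio of this very pair. It had 251 andromonoecious and 41 monoecious reads against 201 hermaphrodite and 0 gynoecious reads. Also among them was the sugar transporter SWEET15 (Unigene35162), with 2085 andromonoecious and 1416 monoecious reads against 1193 hermaphrodite and 28 gynoecious reads. The one that went the other way was an unigene named 12-oxophytodienoate reductase 2 (Unigene7815), with 25 andromonoecious and 94 monoecious reads against 128 hermaphrodite and 5 gynoecious reads.

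**Figure D3:**
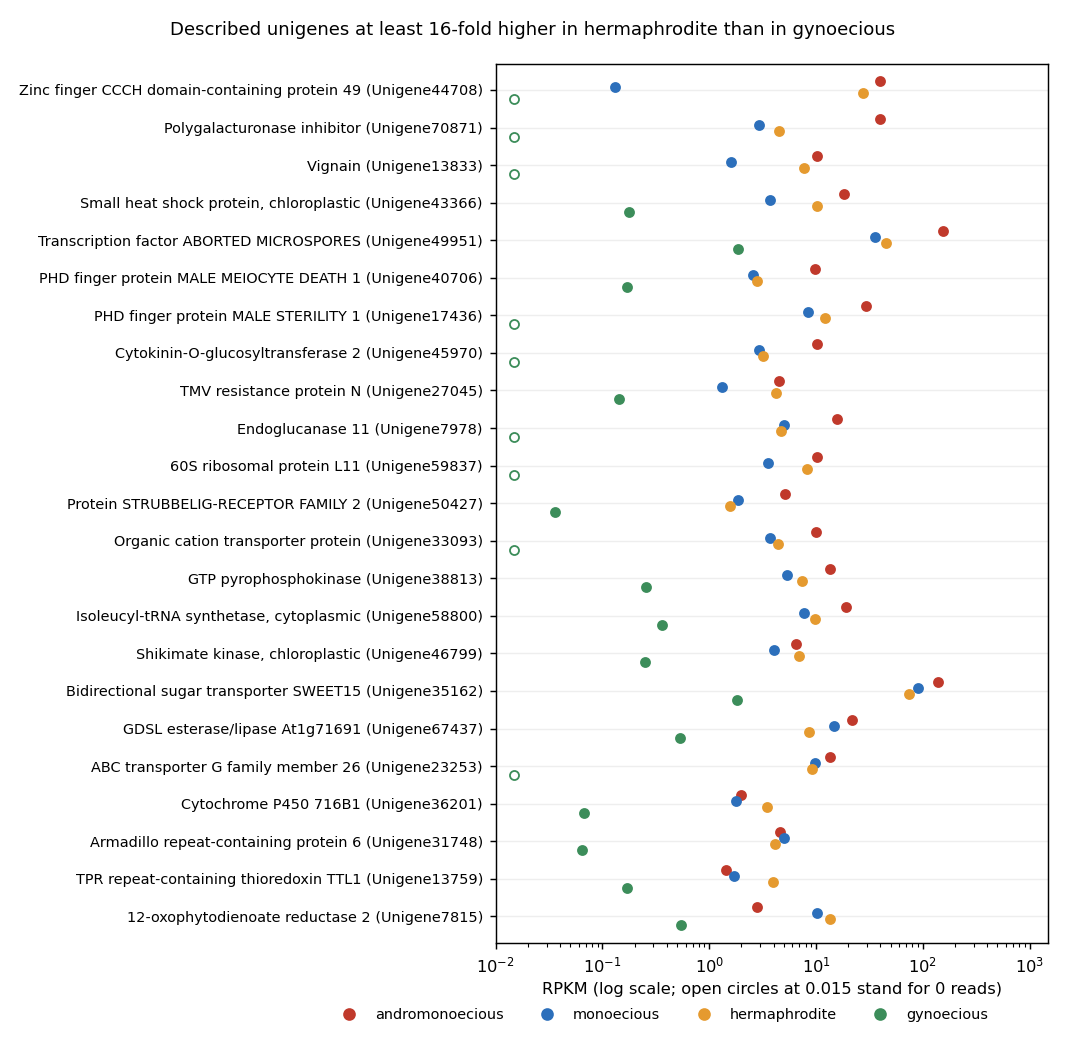
Level (x axis, RPKM, log scale) of the 23 described unigenes at least 16-fold higher in the hermaphrodite than in the gynoecious library, in all 4 libraries, 1 point a library, ordered by the ratio of andromonoecious over monoecious. In 15 of the 23 the andromonoecious point lies at least 2-fold right of the monoecious point, and open circles stand for 0 reads.

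The 12 described unigenes most clearly higher in andromonoecious, ranked by the near end of the counting interval, were led by a zinc finger protein of the CCCH kind, a family that binds RNA. Zinc finger CCCH domain-containing protein 49 (Unigene44708) had 583 andromonoecious and 2 monoecious reads, with 433 hermaphrodite and 0 gynoecious reads, a ratio of 302 (83.1 to 2496). It was present in both libraries with the recessive a allele and nearly absent from both with the dominant one. The neighbouring Unigene44707, for which no table used here gives a product, had the reverse pattern: 0 andromonoecious and 2264 monoecious reads, with 0 hermaphrodite and 840 gynoecious reads. It was singled out after its values were seen. Both are of like length, 579 nt for Unigene44708 and 617 nt for Unigene44707. Whether they are forms of 1 gene was not tested, since no sequence is used here.

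Several of the 12 had no monoecious read at all. Vacuolar protein sorting-associated protein 2 homolog 1 (Unigene60791), part of the ESCRT machinery that sorts membrane proteins for breakdown, had 261 andromonoecious and 0 monoecious reads, with 253 hermaphrodite and 234 gynoecious reads. It was at least 90-fold higher in andromonoecious than in monoecious, and the monoecious library alone stood apart. (+)-delta-cadinene synthase isozyme A (Unigene32695), a sesquiterpene synthase, had 86 andromonoecious and 0 monoecious reads, with 105 hermaphrodite and 50 gynoecious reads (at least 29.7-fold). Early nodulin-like protein 1 (Unigene26829), a protein of the plastocyanin-like kind, had 53 andromonoecious and 0 monoecious reads, with 81 hermaphrodite and 39 gynoecious reads (at least 18.3-fold). A phospholipase named DDHD2 (Unigene60762) had 68 andromonoecious and 0 monoecious reads, with 11 hermaphrodite and 58 gynoecious reads (at least 23.4-fold). A count of 0 on a unigene need not mean a silent gene, because its reads may have been placed on another unigene.

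Abundant unigenes were also among the 12. Heat shock cognate 70 kDa protein 2 (Unigene48626), a constitutive chaperone, had 20220 andromonoecious and 1819 monoecious reads, with 7332 hermaphrodite and 13645 gynoecious reads. Its level was 459 RPKM in andromonoecious and 39.9 RPKM in monoecious, a ratio of 11.5 (11.0 to 12.1), and the monoecious library was the lowest of the 4. The endoplasmin homolog Unigene54626, the HSP90 chaperone of the endoplasmic reticulum, had 552 RPKM in andromonoecious and 72.9 RPKM in monoecious, with 138 RPKM in hermaphrodite and 293 RPKM in gynoecious (7.57-fold, 7.10 to 8.08). A polygalacturonase inhibitor (Unigene70871), which blocks pectin-degrading enzymes, had 425 andromonoecious and 32 monoecious reads, with 51 hermaphrodite and 0 gynoecious reads (13.7-fold, 9.58 to 20.3). It was the only one of these 3 that was absent from the gynoecious library.

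The remaining 4 of the 12 had fewer reads. The abscisic acid receptor PYR1 (Unigene64485) had 158 andromonoecious and 10 monoecious reads, with 86 hermaphrodite and 32 gynoecious reads (16.3-fold, 8.66 to 34.7). Glutamate decarboxylase (Unigene24506), which makes the signalling compound GABA, had 50 andromonoecious and 1 monoecious reads, a ratio of 51.7 (8.87 to 2083), with 153 hermaphrodite and 31 gynoecious reads. The aspartic protease nepenthesin-1 (Unigene43641) had 86 andromonoecious and 4 monoecious reads (22.2-fold, 8.38 to 83.5). For these 3 the monoecious library was the lowest of all 4. 3-ketoacyl-CoA synthase 6 (Unigene1260), which builds the very long fatty acids of wax, had 115 andromonoecious and 1 monoecious reads, with 11 hermaphrodite and 81 gynoecious reads, a ratio of 119 (20.9 to 4739).

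**Figure D4:**
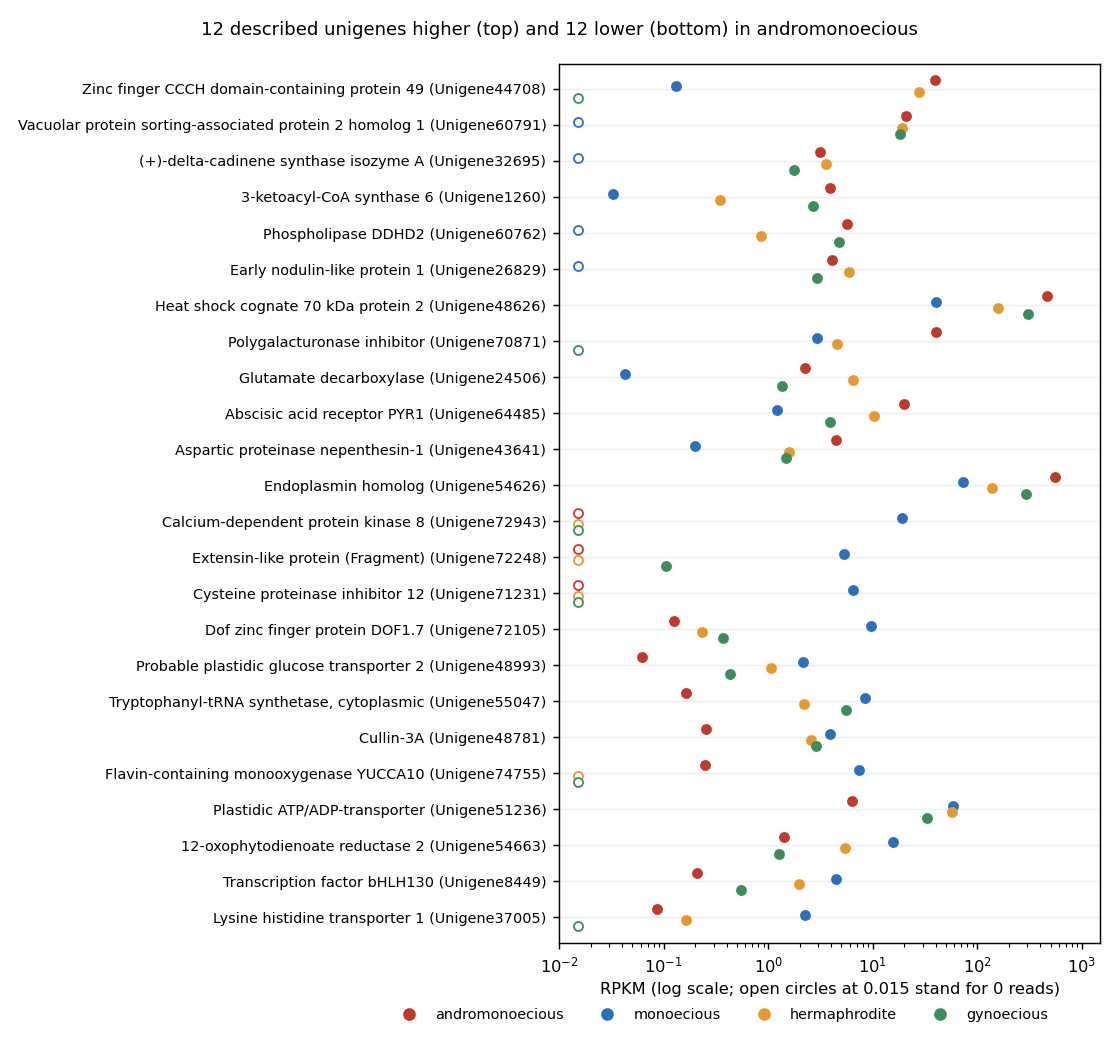
Level (x axis, RPKM, log scale) of the 12 described unigenes higher (upper rows) and the 12 lower (lower rows) in andromonoecious, in all 4 libraries, 1 point a library, with open circles for 0 reads. Among the upper rows Unigene60791, Unigene32695, Unigene60762 and Unigene26829 have 0 reads in the monoecious library alone, and among the lower rows 3 have 0 andromonoecious reads.

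Among the 12 most clearly lower in andromonoecious, 3 had no andromonoecious read and few or none in the second pair. Calcium-dependent protein kinase 8 (Unigene72943), a sensor of calcium signals, had 0 andromonoecious and 233 monoecious reads, with 0 hermaphrodite and 0 gynoecious reads (at least 75.1-fold lower). An extensin-like protein (Unigene72248), a structural protein of the cell wall, had 0 andromonoecious and 102 monoecious reads, with 0 hermaphrodite and 2 gynoecious reads (at least 32.9-fold lower). Cysteine proteinase inhibitor 12 (Unigene71231) had 0 andromonoecious and 64 monoecious reads, with 0 in either of the others (at least 20.6-fold lower). The same profile, high in monoecious alone, held for the Dof zinc finger factor DOF1.7 (Unigene72105), with 1 andromonoecious and 80 monoecious reads, 77.3-fold lower (13.5 to 3093), and 2 hermaphrodite and 3 gynoecious reads. It held too for YUCCA10 (Unigene74755), a flavin monooxygenase of auxin synthesis, with 2 andromonoecious and 61 monoecious reads, 29.5-fold lower (7.82 to 249), and 0 in the others.

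All 5 of these carry unigene numbers from 57000 up, and number and library went together there. Of 2742 unigenes numbered from 71000 to 74000, 3.03% had no monoecious read, while 43.4% had no andromonoecious, 42.1% no hermaphrodite and 41.4% no gynoecious read. Of 5563 numbered from 58000 to 64000, 1.24% had no andromonoecious read and 42.1% no monoecious read. The ratios followed: with 50 reads, 48 of 121 unigenes in the first range (39.7%) were 4-fold lower in andromonoecious and 0 higher, and 26 of 206 in the second (12.6%) were 4-fold higher and 1 lower. Below 57000, 719 of 33270 unigenes (2.16%) were 4-fold higher in andromonoecious and 679 (2.04%) lower, and there the shares without reads were 2.63% for andromonoecious and 4.62% for monoecious. These ranges were set after the data were seen. Of the 45 unigenes with no andromonoecious read and at least 50 monoecious reads, 37 are numbered from 57000 up and 26 also had no hermaphrodite and no gynoecious read. Of the 17 with no monoecious read, 1 had none in the second pair either. On the higher side, 4 of the 12 leading unigenes also carry such numbers: Unigene60791 and Unigene60762, both without monoecious reads, lie in the range from 58000 to 64000, and PYR1 and the polygalacturonase inhibitor lie above it. What part the numbering plays in the single ratios was not tested.

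The other 7 unigenes on the lower side had reads in all or nearly all libraries. The plastidic ATP/ADP transporter (Unigene51236), which carries energy into plastids, had 128 andromonoecious and 1220 monoecious reads, with 1224 hermaphrodite and 673 gynoecious reads (9.21-fold lower, 7.68 to 11.1). Cullin-3A (Unigene48781), a scaffold of ubiquitin ligases, had 11 andromonoecious and 174 monoecious reads, with 116 hermaphrodite and 126 gynoecious reads (15.3-fold lower, 8.34 to 31.2). For both, the andromonoecious library alone was low. A probable plastidic glucose transporter (Unigene48993) had 2 andromonoecious and 71 monoecious reads, 34.3-fold lower (9.16 to 289), and the cytoplasmic tryptophanyl-tRNA synthetase (Unigene55047), which loads tryptophan for translation, had 1 andromonoecious and 53 monoecious reads, 51.2-fold lower (8.81 to 2062). Transcription factor bHLH130 (Unigene8449) had 3 andromonoecious and 66 monoecious reads, with 30 hermaphrodite and 8 gynoecious reads, 21.3-fold lower (6.97 to 106). Lysine histidine transporter 1 (Unigene37005), an amino acid importer, had 2 andromonoecious and 54 monoecious reads, 26.1-fold lower (6.88 to 221). The twelfth was the 12-oxophytodienoate reductase Unigene54663, described below with jasmonate.

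Gene lists were drawn from words in the product names, and a member is counted when it is at least 2-fold apart. Ethylene is the hormone through which the a gene acts. The one ACC oxidase (Unigene2813), which carries out the last step of ethylene synthesis, had 73 andromonoecious and 179 monoecious reads, with 101 hermaphrodite and 18 gynoecious reads. It was 2.37-fold lower in andromonoecious (1.80 to 3.16), at 2.19 RPKM in andromonoecious and 5.18 RPKM in monoecious. S-adenosylmethionine synthase 2 (Unigene58025), which makes the precursor, had 6 andromonoecious reads and 0 in each other library, too few for a ratio. Of 16 unigenes of ethylene perception and response, 5 (31.2%) were higher in andromonoecious and 0 lower, with a median log2 ratio of 0.39. That share was near the 28.1% over all described unigenes. Of the 14 not named through this pair, 3 were higher (21.4%, against 21.2% over described unigenes chosen alike). All 5 of the higher members were ethylene-responsive transcription factors. Among them was ERF114 (Unigene53953), with 3079 andromonoecious and 737 monoecious reads, 831 hermaphrodite and 187 gynoecious reads (4.32-fold, 3.99 to 4.69). ERF109 (Unigene52982) had 252 andromonoecious and 65 monoecious reads, with 292 hermaphrodite and 163 gynoecious reads (4.01-fold, 3.04 to 5.35). The ethylene receptor and the 3 unigenes of CTR1, the kinase that holds the pathway off, lay within 2-fold.

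Auxin genes leaned lower in andromonoecious. Of 14 with 50 reads, 7 were lower and 1 higher, with a median log2 ratio of -1.01, against 0.17 over all described unigenes. Beside YUCCA10, auxin-induced protein 10A5 (Unigene28623), of the SAUR family of early auxin-response genes, had 4 andromonoecious and 48 monoecious reads, with 35 hermaphrodite and 17 gynoecious reads (11.6-fold lower, 4.25 to 44.3). ARG7 (Unigene50361), a further auxin-induced protein, had 7 andromonoecious and 52 monoecious reads, with 68 hermaphrodite and 9 gynoecious reads (7.18-fold lower, 3.25 to 18.7). The one higher member, a putative auxin:hydrogen symporter (Unigene56382), had 47 andromonoecious and 10 monoecious reads (4.86-fold, 2.42 to 10.8). The count rests partly on thinly covered unigenes: with a minimum of 100 reads in the pair, 2 members were lower and 0 higher. Of the 14 members, 5 are named through a table of this very pair, and among the other 9 there were 3 lower (33.3%, against 12.7% over described unigenes chosen alike) and 0 higher. Of the 4 named through no ratio of either library, 1 was lower and 0 higher.

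**Figure D5:**
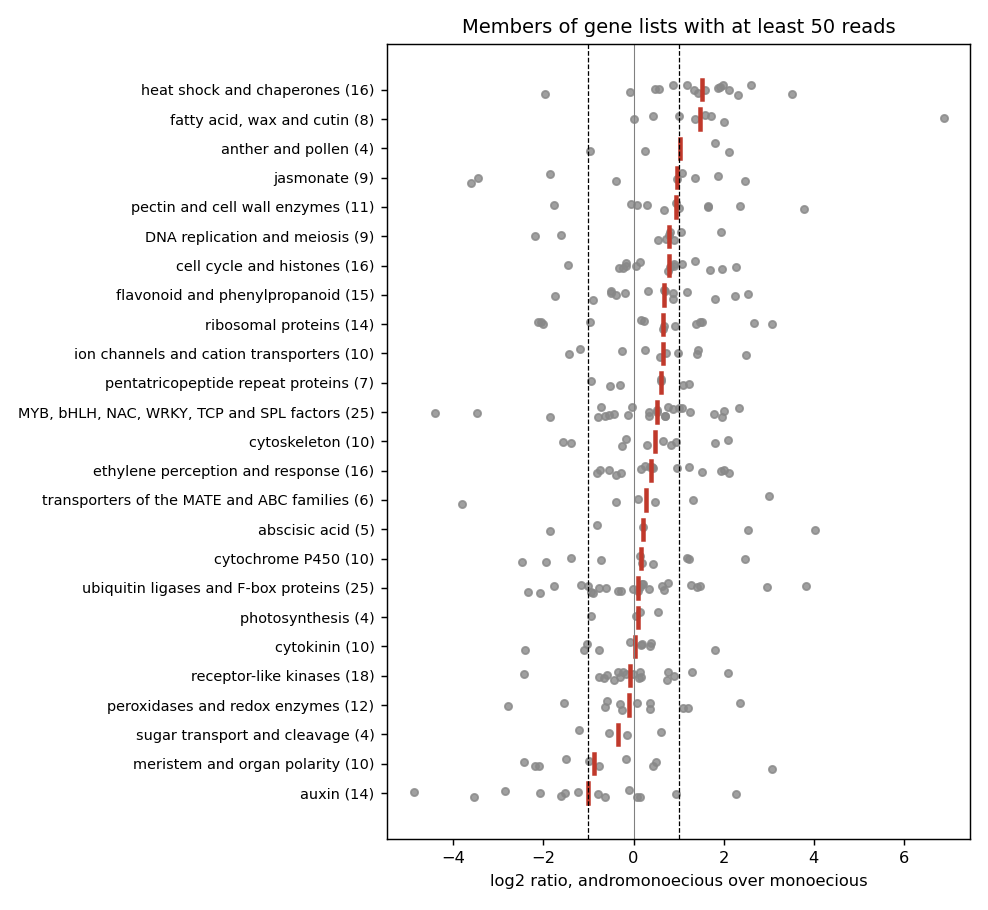
Log2 ratio of andromonoecious over monoecious (x axis) for the members with at least 50 reads of each gene list that has 4 or more (rows, number of members in brackets), with grey points for unigenes, red bars for the list's median and dashed lines at 2-fold. The median is 1.51 for heat shock and chaperones at the top and -1.01 for auxin at the bottom.

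Meristem and organ polarity genes, mostly homeobox factors, had 4 of 10 lower in andromonoecious and 1 higher (median log2 ratio -0.88). The share of 40.0% lower stands against 18.1% over all described unigenes. With a minimum of 100 reads, 2 were lower and 0 higher. Of the 6 not named through this pair 1 was lower (16.7%, against 12.7% over described unigenes chosen alike) and 0 higher. Of the 3 named through no ratio of either library, 0 were lower and 0 higher. The homeobox protein knotted-1-like 7 (Unigene39829), of a family that keeps meristem cells undifferentiated, had 731 andromonoecious and 3459 monoecious reads, with 2152 hermaphrodite and 605 gynoecious reads (4.57-fold lower, 4.22 to 4.96). CLAVATA1 (Unigene46066), the receptor kinase that limits meristem size, had 8 andromonoecious and 45 monoecious reads, with 36 hermaphrodite and 32 gynoecious reads (5.44-fold lower, 2.54 to 13.4). Knotted-1-like members did not go one way. Knotted-1-like 1 (Unigene52382) had 18 andromonoecious and 80 monoecious reads (4.30-fold lower, 2.55 to 7.62), while knotted-1-like 2 (Unigene52690) had 65 andromonoecious and 8 monoecious reads (8.40-fold higher, 4.02 to 20.3). Among floral regulators, the flowering promoter SOC1 (Unigene16342) had 31 andromonoecious and 30 monoecious reads, and the flowering repressor SVP (Unigene41698) had 21 andromonoecious and 36 monoecious reads (ratio of monoecious over andromonoecious 1.66, 0.942 to 2.99). APETALA 2 (Unigene9349), a factor of sepal and petal identity, had 18 andromonoecious and 2 monoecious reads, with 10 hermaphrodite and 35 gynoecious reads, a ratio of 9.31 (2.23 to 82.7). That is under the minimum of 50 reads, and a pseudocount of 1 took its log2 ratio from 3.22 to 1.14. SOC1 and SVP, the 2 floral regulators with 50 reads, were less than 2-fold apart. The carpel and ovule list had 0 members among the described unigenes.

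Jasmonate, abscisic acid, gibberellin and cytokinin lists were mixed or small. Of 9 jasmonate unigenes, 4 were higher in andromonoecious (44.4%) and 3 lower (33.3%). Over all described unigenes these shares were 28.1% and 18.1%. Allene oxide cyclase 4 (Unigene6414), an early enzyme of jasmonate synthesis, had 1696 andromonoecious and 316 monoecious reads, with 1218 hermaphrodite and 2039 gynoecious reads (5.55-fold higher, 4.92 to 6.28). The reductase 12-oxophytodienoate reductase 2 (Unigene54663) had 24 andromonoecious and 274 monoecious reads, with 98 hermaphrodite and 22 gynoecious reads (11.0-fold lower, 7.26 to 17.5). The TIFY repressors of jasmonate response split as well: TIFY 9 (Unigene16103) was 3.68-fold higher (2.69 to 5.11), and TIFY 11A (Unigene70694), with 6 andromonoecious and 76 monoecious reads, was 12.2-fold lower (5.37 to 34.4).

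Of 5 abscisic acid unigenes, 2 were higher and 1 lower. The higher ones are the receptors PYR1, described above, and PYL4 (Unigene42382), with 1267 andromonoecious and 226 monoecious reads, 1149 hermaphrodite and 1400 gynoecious reads (5.80-fold, 5.03 to 6.71). The lower one, ABSCISIC ACID-INSENSITIVE 5-like protein 6 (Unigene47561), of a family of bZIP factors that carry out the response, had 66 andromonoecious and 248 monoecious reads (3.63-fold lower, 2.76 to 4.84). Both gibberellin unigenes with 50 reads (1 with 100 reads) were higher in andromonoecious: gibberellin-regulated protein 4 (Unigene43735), a small cysteine-rich protein, was 3.60-fold higher (3.42 to 3.80), and gibberellin 2-beta-dioxygenase 8 (Unigene21624), which inactivates gibberellins, was 3.01-fold higher (1.85 to 5.07). Of 10 cytokinin unigenes 1 was higher and 3 lower, with a median log2 ratio of 0.04. The higher one and the lowest one share the product name cytokinin-O-glucosyltransferase 2: Unigene45970 had 273 andromonoecious and 81 monoecious reads, and Unigene50758 had 18 andromonoecious and 99 monoecious reads.

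Heat shock proteins and chaperones had the highest median of any list in the plot of list members. Of 16, 11 were higher in andromonoecious and 1 lower, with a median log2 ratio of 1.51. The share of 68.8% higher stands against 28.1% over all described unigenes. Beside the cognate 70 kDa protein, the peroxisomal 15.7 kDa heat shock protein (Unigene36459) had 260 andromonoecious and 44 monoecious reads, with 182 hermaphrodite and 50 gynoecious reads (6.11-fold, 4.43 to 8.62). A chloroplast small heat shock protein (Unigene43366) had 302 andromonoecious and 63 monoecious reads, with 179 hermaphrodite and 3 gynoecious reads (4.96-fold, 3.77 to 6.61). The 97 kDa heat shock protein (Unigene16346) had 232 andromonoecious and 55 monoecious reads, with 567 hermaphrodite and 386 gynoecious reads (4.36-fold, 3.24 to 5.97). The gynoecious level was close to the monoecious one for the first of these 3, far below it for the second and above it for the third, so the members do not share 1 profile over the 4 libraries. Among the 12 members not named through the table of this pair, 7 were higher (58.3%, against 21.2% over described unigenes chosen alike) and 1 lower. Of the 5 named through no ratio of either library, 3 were higher and 0 lower.

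Genes of fatty acids, wax and cutin were higher in andromonoecious in 6 of 8 cases and lower in 0 (median log2 ratio 1.47). The share of 75.0% higher stands against 28.1% over all described unigenes. Their naming leans on these libraries. Of the 6 not named through this pair 4 were higher (66.7%, against 21.2% over described unigenes chosen alike). The 1 member named through no ratio of either library was not higher. Beside the 3-ketoacyl-CoA synthase 6, fatty acid 2-hydroxylase (Unigene3581) had 82 andromonoecious and 21 monoecious reads, with 118 hermaphrodite and 234 gynoecious reads (4.04-fold, 2.48 to 6.87). WAX2 (Unigene6929), needed for the waxy surface layer, had 494 andromonoecious and 156 monoecious reads, with 1052 hermaphrodite and 622 gynoecious reads (3.28-fold, 2.73 to 3.95). The omega-3 fatty acid desaturase of the endoplasmic reticulum (Unigene42840) had 151 RPKM in andromonoecious and 50.5 RPKM in monoecious, with 143 RPKM in hermaphrodite and 213 RPKM in gynoecious (2.99-fold, 2.80 to 3.20). For all 3 of these the monoecious library was the lowest of the 4. Pectin and cell wall enzymes had 5 of 11 higher (45.5%) and 1 lower (median 0.94). Of the 9 not named through this pair, 3 were higher (33.3%, against 21.2% over described unigenes chosen alike) and 1 lower. The lower one was endoglucanase 16 (Unigene7702), with 56 andromonoecious and 198 monoecious reads (3.42-fold lower, 2.53 to 4.69). Flavonoid and phenylpropanoid genes had 4 of 15 higher and 1 lower (median 0.68). Their 26.7% higher was near the 28.1% over all described unigenes. Phenylalanine ammonia-lyase (Unigene2206), the entry enzyme, was 5.86-fold higher (3.15 to 11.9) and chalcone synthase A (Unigene79160), the first step to flavonoids, 3.51-fold higher (2.46 to 5.10), while flavonoid 3'-monooxygenase (Unigene3892), which adds a hydroxyl group to the flavonoid ring, was 3.37-fold lower (2.70 to 4.25).

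Growth and housekeeping lists held members on both sides, apart from photosynthesis. Their counts stand against 28.1% higher and 18.1% lower over all described unigenes. Of 16 cell cycle and histone unigenes, 5 were higher (31.2%, near that share) and 1 lower (median 0.79). Cyclin-D3-3, which drives entry into division, stands on 2 unigenes in opposite directions: Unigene30852 had 1370 andromonoecious and 293 monoecious reads (4.84-fold higher, 4.26 to 5.51), and Unigene6338 had 17 andromonoecious and 48 monoecious reads (2.73-fold lower, 1.54 to 5.06). MAD2 (Unigene11473), the spindle checkpoint protein, had 266 andromonoecious and 85 monoecious reads, with 185 hermaphrodite and 747 gynoecious reads (3.24-fold, 2.53 to 4.18). The ribosomal protein list had 5 of 14 higher and 3 lower, ubiquitin ligases and F-box proteins had 5 of 25 higher and 5 lower, and receptor-like kinases had 2 of 18 higher and 1 lower. The cytoskeleton list had 2 of 10 higher and 2 lower, among them actin-7 (Unigene7810), a main actin of growing tissue, at 43.1 RPKM in andromonoecious and 113 RPKM in monoecious (2.61-fold lower, 2.41 to 2.84). Factors of the MYB, bHLH, NAC, WRKY, TCP and SPL families had 7 of 25 higher and 3 lower (median 0.52). Their 28.0% higher was near the 28.1% over all described unigenes. All 4 photosynthesis unigenes lay within 2-fold (median 0.10). The read minimum moved these counts: with 100 reads, cell cycle and histones had 2 higher and 0 lower, ribosomal proteins 2 and 1, ubiquitin ligases and F-box proteins 2 and 2, receptor-like kinases 1 and 0, the cytoskeleton 1 and 2, and the MYB to SPL factors 1 and 1.

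Enzymes of the cytochrome P450 family had 3 of 10 higher in andromonoecious and 3 lower (median 0.17). Among them were enzymes of brassinosteroid synthesis on either side: cytochrome P450 85A (Unigene13466), which acts at the end of that route, had 538 andromonoecious and 100 monoecious reads, with 303 hermaphrodite and 165 gynoecious reads (5.56-fold higher, 4.49 to 6.96). Cytochrome P450 90A1 (Unigene8061), which acts earlier, had 10 andromonoecious and 40 monoecious reads, with 54 hermaphrodite and 9 gynoecious reads (3.87-fold lower, 1.90 to 8.67). The one unigene of the brassinosteroid list, the cell wall enzyme BRU1 (Unigene2947), was 4.95-fold higher (3.65 to 6.83). Peroxidases and redox enzymes had 3 of 12 higher and 2 lower (median -0.09), among them the glutathione S-transferase parC (Unigene17460), a detoxifying enzyme, 5.14-fold higher (3.62 to 7.50). The DNA replication and meiosis list had 2 of 9 higher, MALE MEIOCYTE DEATH 1 and the DNA repair protein XRCC4 (Unigene13869), and 2 lower (median 0.79). The stronger of the lower ones, named meiosis protein mei2 (Unigene31970) after an RNA-binding protein of fission yeast, had 24 andromonoecious and 113 monoecious reads (4.55-fold lower, 2.91 to 7.40).

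The remaining lists had few members or no lean. Their counts stand against 28.1% higher and 18.1% lower over all described unigenes. Ion channels and cation transporters had 3 of 10 higher and 2 lower (median 0.66), and MATE and ABC transporters had 2 of 6 higher and 1 lower (median 0.28). The lower one, ABC transporter B family member 28 (Unigene39031), had 4 andromonoecious and 58 monoecious reads (14.0-fold lower, 5.19 to 53.2). Pentatricopeptide repeat proteins, which process organelle RNA, had 2 of 7 higher and 0 lower (median 0.61). Sugar transport and cleavage had 0 of 4 higher and 1 lower (median -0.34), nitrate and nitrogen assimilation had 1 of 2 higher and 0 lower (median 0.76), and transposon-related unigenes had 0 of 3 higher and 1 lower (median -0.94). With a minimum of 100 reads, cytochrome P450 and the DNA replication and meiosis list each had 1 higher and 1 lower, redox enzymes 3 and 1, ion channels 1 and 2, MATE and ABC transporters 2 and 0, pentatricopeptide repeat proteins 1 and 0, and sugar transport 0 and 0.

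Leaf markers and markers of dividing cells were close between the 2 libraries, and the sum of the anther markers rested on 1 gene. The summed level of 3 leaf markers was 127 RPKM in andromonoecious and 115 RPKM in monoecious, with 1 marker at 0 in andromonoecious. Of 7 anther and pollen markers, a list that does not hold ABORTED MICROSPORES, the sum was 40.9 RPKM in andromonoecious and 26.0 RPKM in monoecious, with 1 of the 7 at 0 in each. The sum was 22.9 RPKM in hermaphrodite and 8.67 RPKM in gynoecious, where 3 were at 0. MALE STERILITY 1 gave 29.5 RPKM of it in andromonoecious and 8.41 RPKM in monoecious. The other 6, all callose synthases, summed the other way, to 11.4 RPKM in andromonoecious and 17.6 RPKM in monoecious, with 10.8 RPKM in hermaphrodite and 8.67 RPKM in gynoecious. The 13 markers of dividing cells summed to 438 RPKM in andromonoecious and 485 RPKM in monoecious, with 0 at 0 reads. The part of tissue make-up in the ratios was not tested, and no carpel marker was available.

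The hermaphrodite and gynoecious libraries differ at the a locus under both sources of genotypes and share no library with the first pair. In that pair 1158 of 31300 unigenes (3.70%) were 4-fold higher in hermaphrodite and 480 (1.53%) lower, and 4565 (14.6%) were 2-fold higher and 3580 (11.4%) lower. Unigenes 4-fold higher in andromonoecious over monoecious did not go one way there: of 628 with enough reads, 157 (25.0%) were 2-fold higher in hermaphrodite and 155 (24.7%) were 2-fold lower. At 4-fold the counts were 86 higher (13.7%) and 42 lower (6.69%). Of 454 unigenes 4-fold lower in andromonoecious, 56 (12.3%) were also 2-fold lower in hermaphrodite over gynoecious, while 180 (39.6%) were 2-fold higher. At 4-fold 21 (4.63%) were lower and 69 (15.2%) higher. At 4-fold each of these shares lay above that over all 31300 unigenes (3.70% higher, 1.53% lower). At 2-fold the same held, except that the 12.3% lower in both pairs was near the 11.4% over all unigenes. The CCCH zinc finger unigene above is one of those that went the same way in both.

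The authors' deposited table of monoecious over andromonoecious has 610 entries, of which 278 are listed higher and 332 lower in monoecious, all at an absolute log2 ratio of at least 2.00 and a false discovery rate of at most 0.001. In that authors' deposited table the ratio fits the reads printed beside it in 374 entries (61.3%). For 223 entries of the authors' deposited table it fits the reads of a unigene up to 12 places further on in the order of names, and 13 fit none in that range. Among the 223 such entries of the authors' deposited table, the printed reads go against the listed direction in 101, and in 20 they are 4-fold apart. All ratios given above therefore come from the reads. The authors' deposited table for the a locus names 128 CDS, of which 127 were found: by their reads 50 were higher in both andromonoecious over monoecious and hermaphrodite over gynoecious, 19 were lower in both and 53 went opposite ways.

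One further unigene was singled out for its name after its values were seen. A unigene named sex determination protein tasselseed-2 (Unigene16080), after the maize dehydrogenase whose activity removes carpels from the tassel, had 49 andromonoecious and 4 monoecious reads, with 49 hermaphrodite and 45 gynoecious reads. It was 12.7-fold higher in andromonoecious (4.65 to 48.3), and the monoecious library alone stood low. Its level did not exceed 3.22 RPKM in any library.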

How the data were processed

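RNA of 4 bulks was sequenced, 1 library for each sex type. The authors deposited RPKM (reads per kilobase per M reads, to 4 decimals) for 76260 unigenes, per the file headers. For pairs of libraries they deposited raw counts, log2 ratios of RPKM, p-values with false discovery rates and unigene lengths. In these ratios 0 is taken to stand as 0.001. A deposited BLAST table gives percent identity of unigenes and CDS. The aligner was, like the assembler, not given in the sources used here.

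Whole reads were recovered from RPKM and the library totals, with the shortest length between 200 and 20000 nt that gives whole reads in all 4 libraries. Of 1820 unigenes with listed lengths, 1731 (95.1%) came out with the listed length and counts; for the others reads can be understated. Listed counts were used where given, which holds for every described unigene. Recovered reads made up 98.2 to 98.3% of the totals.

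CDS names in the library files and the BLAST table were not used, since 817 neighbouring entries of 11805 carry an identical match under another CDS (0 for entries 100 apart). Names come from the CDS printed beside the reads in the 4 pair tables. Where the ratio of an entry belongs to a later unigene, 156 of 157 checkable entries had the CDS that other entries give for those reads. No sequence was at hand to check a name, and 0 CDS occurred in the RefSeq gene table. The 8 RPKM columns of a list for the g locus were not used.

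Ratios are reads per library total, with a minimum of 50 reads in the pair, a floor of 3 reads and exact 95% intervals, in Python 3.11.15 with scipy 1.17.1. edgeR 4.0.16 and DESeq2 1.42.0 gave the alternative scalings (TMM and size factors) only. The named unigenes are the 12 described ones most clearly higher and the 12 lower, up to 4 members 2-fold apart in each of 32 lists (31 have members), and all ACC enzymes and floral regulators. The planned condition on BLAST matches was replaced by a described product. The members and lists were chosen with earlier results of these data known. Scripts were tested on simulated reads.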

Additional observations from a re-analysis of the deposited data

Results flagged for a closer look

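Of the named unigenes, 7 were at least 4-fold apart in opposite directions in the 2 pairs of libraries. With 1 library in each group the difference between the pairs was not tested. Values are log2 ratios of andromonoecious over monoecious, followed by those of hermaphrodite over gynoecious. 3-ketoacyl-CoA synthase 6 (Unigene1260) had 6.89 and -2.93, and the 60S acidic ribosomal protein P1 (Unigene17454) had 3.07 and -2.06. BRU1 (Unigene2947), a brassinosteroid-regulated enzyme of the cell wall, had 2.31 and -4.10, with 244 andromonoecious and 51 monoecious reads against 171 hermaphrodite and 2829 gynoecious reads. The phospholipase Unigene60762 had 4.55, a bound since the monoecious library had 0 reads, and -2.45. In the other direction, ARG7 (Unigene50361) had -2.84 and 2.87, cytokinin-O-glucosyltransferase 2 (Unigene50758) -2.41 and 2.97, and 12-oxophytodienoate reductase 2 (Unigene54663) -3.46 and 2.10.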

How the results depend on the processing

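No paired analysis was possible because each sex type has 1 library, and leaving one out ends the comparison. TMM factors shifted log2 ratios by 0.065 and DESeq2 size factors by 0.031; neither moved any of the 11 counts and shares by over 1.5 times or any of the 112 named ratios past its interval. The alternatives with well matched unigenes only and with reads summed over a CDS were not run, for want of usable matches. The limit on reads set the counts. At a minimum of 20 reads, 1978 unigenes were 4-fold higher in andromonoecious and 2141 lower, 6698 and 7130 at 2-fold, with 142 and 82 list members. At 100 reads these were 447 and 377, 2500 and 2345, with 25 list members lower. With no minimum they were 4482 and 4002, 13946 and 12017, with 198 and 119 list members. In hermaphrodite over gynoecious, of those 4-fold higher 349 went the same and 393 the opposite way at 20 reads, 99 and 100 at 100 reads, and 958 and 1116 with no minimum. Of those 4-fold lower these were 204 and 482, 30 and 97, and 702 and 1117. A pseudocount of 1 left 276 and 267 unigenes at 4-fold, with 2461 lower at 2-fold. It moved 45 of the 112 named ratios past their intervals: of 110 named ratios past 2-fold 95 stayed past it, and of 69 past 4-fold 36 did. Unigene1260 had a log2 ratio of 2.24 in place of 6.89, Unigene24506 1.63 in place of 5.69 and Unigene48993 -1.56 in place of -5.10. Of 60 counts of list members, 25 moved by over 1.5 times at 100 reads. Added after seeing the data: described unigenes alone gave 99 and 70 at 4-fold and 242 and 156 at 2-fold. The share of 49.7% was 59.3% at 100 reads and 40.3% with a limit of 8-fold. Unigenes numbered under 57000 moved none of the 11. Intervals hold counting error only.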
